A study of Homo sapiens with 14 samples.

Results

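The 50 genes described here encode the parts of the lysosome, the autophagy machinery and the TFEB pathway that controls both. They were chosen by name, with no threshold on their values but with earlier results of these data known. Each is listed once in every library, 50 of the 34968 gene symbols of the ursolic acid files and of the 26145 of the digoxin files. They fall into 7 roles: 3 members of the TFEB family, 5 regulators of TFEB, 6 proteins of the lysosomal membrane, 8 lysosomal proteases, 11 other hydrolases and their cofactors, 9 components of the V-ATPase proton pump and 8 autophagy genes. RNA-seq had been made of 2 human cancer cell lines treated with natural compounds. Earlier studies of immune cells had described both compounds as antagonists of RORγt, the T cell form of the nuclear receptor RORγ. For cancer cells the paper reports ursolic acid as an antagonist of RORγ, and it reports that digoxin is not one at the concentrations used. C4-2B is an androgen receptor-positive line of prostate cancer (PCa) derived from LNCaP cells, and it was given ursolic acid (UA, a plant triterpenoid) at 10 µM, or digoxin (a cardiac glycoside) at 100 nM, each with a vehicle of its own series, for 24 or 48 h, which makes 8 libraries. HCC70, a triple-negative breast cancer (TNBC) line, was given vehicle or UA at 5 or 10 µM for 24 or 48 h, which makes 6. Both lines are labelled wild type and grew in RPMI-1640 medium with serum. Every condition has 1 library, so no value has an error and no p-value can be given, and a treated library is described only as higher or lower than its vehicle, that of the same line, series and time.

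Lysosomes are acidic organelles in which proteases, glycosidases, lipases and sulfatases break down what endocytosis and autophagy deliver. TFEB and its relatives TFE3 and MITF are transcription factors that bind short E-box motifs, known as CLEAR elements, in the promoters of lysosome and autophagy genes. While the kinase complex mTORC1 is active at the lysosome it phosphorylates TFEB and keeps it in the cytoplasm, and the Rag GTPases with the FLCN and FNIP proteins bring TFEB to mTORC1, so that the activity of the factor is set mainly by its location and not by its RNA level.

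The promoter letters show which members carry the strict form of this motif next to their start. RefSeq promoters of GRCh38.p14, which run from 250 bases before to 50 bases after the start of a gene, were at hand for 34 of the 50 genes. The palindrome TCACGTGA, the centre of the CLEAR element, was in 5 of these 34 promoters (14.7%), beside 1.04% of 27305 promoters of the same length. The shorter E-box CACGTG, which lies within the palindrome, was in 10 of 34 (29.4%) beside 7.43%. The following windows run from 100 bases before to 10 bases after the start, on the strand of the gene, for the 5 genes with the palindrome. They are shown so that the spacing of the motif, which stands in capitals, can be set beside the expression values. They lie at chr16:67481148-67481257 (minus strand, ATP6V0D1), chr20:45891235-45891344 (plus strand, CTSA), chr17:80101481-80101590 (plus strand, GAA), chr13:113297139-113297248 (plus strand, LAMP1) and chr19:7522524-7522633 (plus strand, MCOLN1).
ATP6V0D1: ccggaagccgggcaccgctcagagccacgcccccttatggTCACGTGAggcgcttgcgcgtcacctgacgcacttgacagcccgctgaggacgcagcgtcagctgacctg
CTSA: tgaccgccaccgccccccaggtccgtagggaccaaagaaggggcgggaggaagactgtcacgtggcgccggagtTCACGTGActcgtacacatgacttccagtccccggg
GAA: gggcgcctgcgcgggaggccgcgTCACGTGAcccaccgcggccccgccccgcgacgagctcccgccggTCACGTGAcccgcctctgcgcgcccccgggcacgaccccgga
LAMP1: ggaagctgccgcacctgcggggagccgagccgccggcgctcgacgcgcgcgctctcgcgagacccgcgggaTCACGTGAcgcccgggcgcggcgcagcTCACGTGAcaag
MCOLN1: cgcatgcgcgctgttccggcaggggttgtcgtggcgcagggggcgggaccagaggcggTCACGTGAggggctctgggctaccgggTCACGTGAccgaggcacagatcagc

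GAA, LAMP1 and MCOLN1 carry the palindrome 2 times in this window, and ATP6V0D1 and CTSA 1 time. A further pair of motifs was searched on both strands: TGATGNAA, the letters of the element bound by ATF4 with C/EBP proteins, was in 0 of 34 promoters beside 3.67% of all, and TGACNNNGC, the core of the antioxidant response element bound by NRF2, was in 13 of 34 (38.2%) beside 13.6%. In GAA a match to TGACNNNGC overlaps the first palindrome. A match is a run of letters and not a measured site, and none of these counts says whether a factor was bound. The 7 genes SQSTM1, GPNMB, ULK1, WIPI1, FLCN, MAP1LC3B and GABARAPL1, which were past 2-fold in at least 1 comparison described below, had no TCACGTGA in the promoter searched. The palindrome was in 14.7% of the searched members and in 1.04% of all promoters, so few of 7 genes would carry it at these shares. LAMP3, PSAP, ARSA and RRAGD, the other 4 of the 11 genes past 2-fold, were not searched.

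The libraries matched the lines they are labelled with. The 8 prostate markers summed to 2015 to 3219 FPKM (fragments scaled to gene length and library size) in C4-2B and to 48.8 to 62.0 in HCC70, and the 8 basal markers to 1983 to 6119 in HCC70 and to 30.6 to 51.4 in C4-2B. The 8 leukocyte markers summed to 8.64 to 29.15 FPKM in C4-2B, nearly all of it the lysosomal gene CD68, and to 292 to 389 in HCC70, where CD14 was at 93.7 to 156 and CD68 at 195 to 291, while TYROBP was at 0 in every library. Of the fibroblast list COL1A1 was at 3.11 to 8.97 FPKM, and DCN and COL1A2 were at 0 in all 14. In the C4-2B library of UA at 48 h, KRT5 (2.18 FPKM), KRT17 (3.89) and KRT6B (1.23) were above its vehicle (0.24, 0.14 and 0.25). They lay at 296 to 1511, 573 to 2869 and 406 to 1061 in HCC70. TRIM29 (0.54 to 1.17) and FOXC1 (0.77 to 0.81) were also higher than in that vehicle. KRT14 (4.66 to 2.93), CDH3 (9.85 to 6.41) and EGFR (21.50 to 18.13) were lower. The 8 basal markers summed to 37.95 FPKM in that vehicle and to 36.75 with UA. Read totals were not stated, but the spacing of low values allows a rough estimate of 12400000 to 15000000 fragments for a library. Between 11210 and 12163 genes passed 1 FPKM in each.

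Nearly all of the 50 genes were expressed in both lines. Above 1 FPKM were 49 or 50 of them in every library, and together they held 0.224 to 0.395% of the summed FPKM, with the lowest share in the UA-series vehicle of C4-2B at 48 h and the highest in HCC70 at 10 µM and 48 h. Levels per length spanned from 0.10 FPKM for LAMP3, in the digoxin-series vehicle of C4-2B at 24 h, to 693 for CTSD, which encodes the aspartic protease cathepsin D. GABARAP, an ATG8-family protein of the autophagosome, reached 470. Below 1 FPKM were MITF in HCC70 and LAMP3 in C4-2B cells without UA. The vehicles of the lines differed. In all 4 C4-2B vehicles 18 of 50 genes were above both HCC70 vehicles, beside 48.6% of all genes, and 20 of 50 were below, beside 26.6%. TFE3, MITF, FLCN, MCOLN1, CTSH, TPP1, ASAH1 and GABARAP were among those higher in C4-2B, and RRAGD, LAMP1, LAMP3, CTSB, CTSD, CTSC, MAP1LC3B and WIPI1 among those higher in HCC70.

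In every comparison more of the 50 genes lay at least 2-fold above the vehicle than below it, except with 5 µM UA in HCC70 cells at 24 h, when none was past 2-fold in either direction. A gene entered a comparison when it was above 1 FPKM in either library, and the log2 ratio is that of treated over vehicle after 0.1 FPKM was added to each. This kept all 50 genes with UA in C4-2B, all but LAMP3 with digoxin and all but MITF in HCC70 cells. LAMP3 was kept in C4-2B only through the UA-treated libraries, where it was high, so it could not have come out unchanged there. In bulk RNA a different share of cells and a different amount of RNA per cell cannot be told apart.

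In C4-2B cells UA was followed by 5 of 50 genes at least 2-fold higher at 24 h, beside 1.28% of all genes, namely LAMP3, GPNMB, GABARAPL1, SQSTM1 and RRAGD, and none 2-fold lower, beside 1.04%. At 48 h these numbers were 2 of 50, LAMP3 and GPNMB, beside 1.75%, and none beside 1.02%. LAMP3 entered every count of higher genes with UA in C4-2B only through its treated libraries. Without LAMP3, GPNMB was the only gene 2-fold higher at 48 h, near the share of all genes. At 1.5-fold 7 of 50 genes were higher at 24 h and 6 at 48 h, beside 3.72 and 4.92% of all genes, and 1, TFEB, was lower at 24 h and none at 48 h, beside 3.36 and 3%. By any amount 39 and 37 of 50 were higher, beside 47.2 and 52%. The median log2 ratio of the 50 genes was 0.090 at 24 h and 0.12 at 48 h, beside −0.013 and 0.011 over all genes. With digoxin 2 of 49 genes were 2-fold higher at 24 h (FLCN and GABARAPL1, beside 2.52% of all genes) and 2 of 49 at 48 h (GPNMB and SQSTM1, beside 2.69%). None was 2-fold lower at either time, beside 1.87 and 3.43%. The medians were 0.37 and 0.28, beside 0.12 and −0.017 over all genes, so that relative to all genes the list was at 0.25 at 24 h. Smaller differences were spread over the list: 42 of 49 genes were above the vehicle at 24 h and 43 at 48 h, by any amount, beside 61.9 and 48.4%. At 1.5-fold 10 of 49 genes were higher at each time, beside 10.9 and 9.27%, which is 20.4% of the list, and none was lower at 24 h and 1, MITF, at 48 h, beside 5.99 and 11.2%.

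In HCC70 cells the difference was larger at the higher dose. With 5 µM UA the medians were 0.013 at 24 h and 0.046 at 48 h, beside 0.060 and −0.054 over all genes. No gene of 49 was 2-fold higher at 24 h (background 1.11%), 1 was at 48 h, GPNMB (1.11%), and none was lower (0.644 and 1.23%). At 1.5-fold FNIP2 was higher and LAMP3 lower at 24 h, 1 of 49 each, beside 3.79 and 2.17% of all genes. At 48 h GPNMB and SQSTM1 were higher, 2 of 49 beside 3.82%, and none was lower, beside 4.82%. By any amount 26 and 32 of 49 were higher, beside 61.7 and 40.9%. With 10 µM 3 of 49 were 2-fold higher at 24 h, FLCN, GPNMB and SQSTM1, beside 2.03%, and none lower, beside 1.73%. At 48 h 7 of 49 were 2-fold higher, beside 6.8%, and 1, LAMP3, was lower, beside 13.3%. Those 7 were GPNMB, ARSA, PSAP, SQSTM1, MAP1LC3B, WIPI1 and ULK1. The share of 2-fold higher genes at 48 h is 14.3% of the list. The median of the 49 genes was 0.077 at 24 h and 0.37 at 48 h. In the latter comparison the median of all genes lay at −0.20, and relative to it the list was at 0.58. At 1.5-fold 8 of 49 genes were higher at 24 h, beside 6.26%, and 1, TFEB, lower, beside 7.05%. By any amount 31 of 49 were higher at each time, beside 41.2 and 38.3%. At 1.5-fold 15 of 49 genes (30.6%) were higher at 48 h, beside 13.6%, and 4 lower, beside 28.1%. Both 24 h and 48 h comparisons use vehicles of their own, so they share no library, while 5 and 10 µM share the vehicle of each time.

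**Figure D1:**
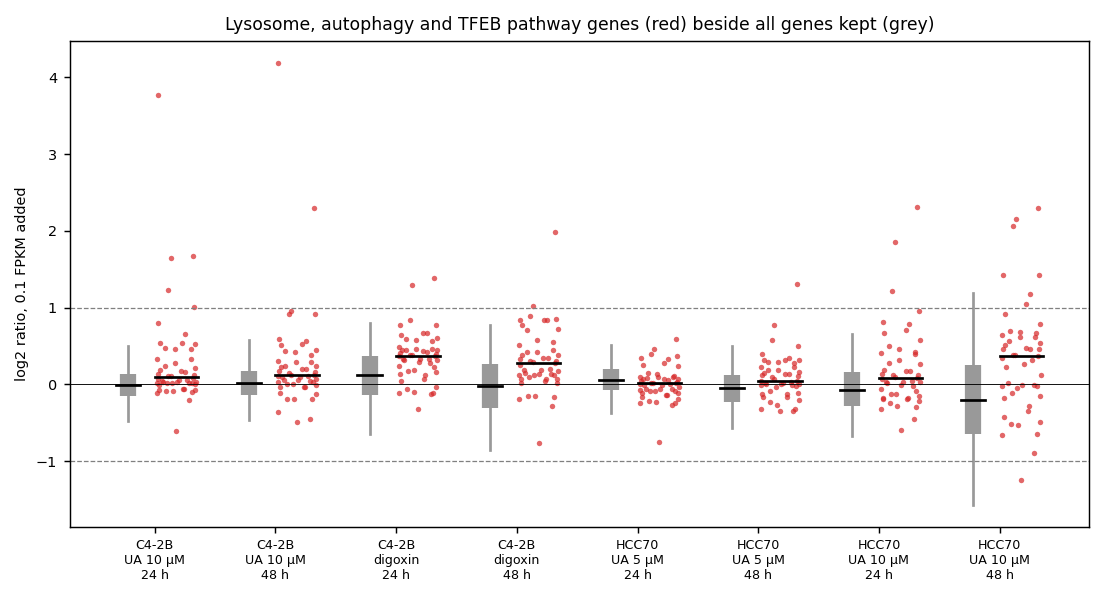
Log2 ratio of treated over vehicle (vertical axis, 0.1 FPKM added) in the 8 comparisons. Red points are the kept lysosome, autophagy and TFEB pathway genes, the grey bars run from the 25th to the 75th percentile of all genes kept, the thin grey lines from the 5th to the 95th, black lines mark medians and dashed lines a 2-fold difference. In HCC70 cells with 10 µM UA at 48 h the list has a median of 0.37 and all genes one of −0.20.

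How far vehicles lie apart gives a scale for these numbers, although it includes time in culture. The vehicle at 48 h over that at 24 h gave a median of −0.0091 in the UA series of C4-2B, with 24 of 49 genes higher by any amount beside 44.9%, and one of −0.019 in HCC70, with 24 of 49 beside 38%. None of the 49 was past 2-fold in either, beside 1.48% of all genes higher and 0.944% lower in the first and 1.45 and 2.01% in the second. In the digoxin series the median was 0.25, with 43 of 49 genes higher beside 65.7%, and GABARAPL1 was 2-fold higher (1.18), the only gene of the 49 to be so, beside 3.77%, and none was lower, beside 0.676%. The vehicles of digoxin and UA, both of untreated C4-2B cells, did not overlap for 17 of 49 genes that were higher in the digoxin series, beside 41.3%, and for 15 that were lower, beside 29.7%. Each treatment was therefore set against its own vehicle.

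**Figure D2:**
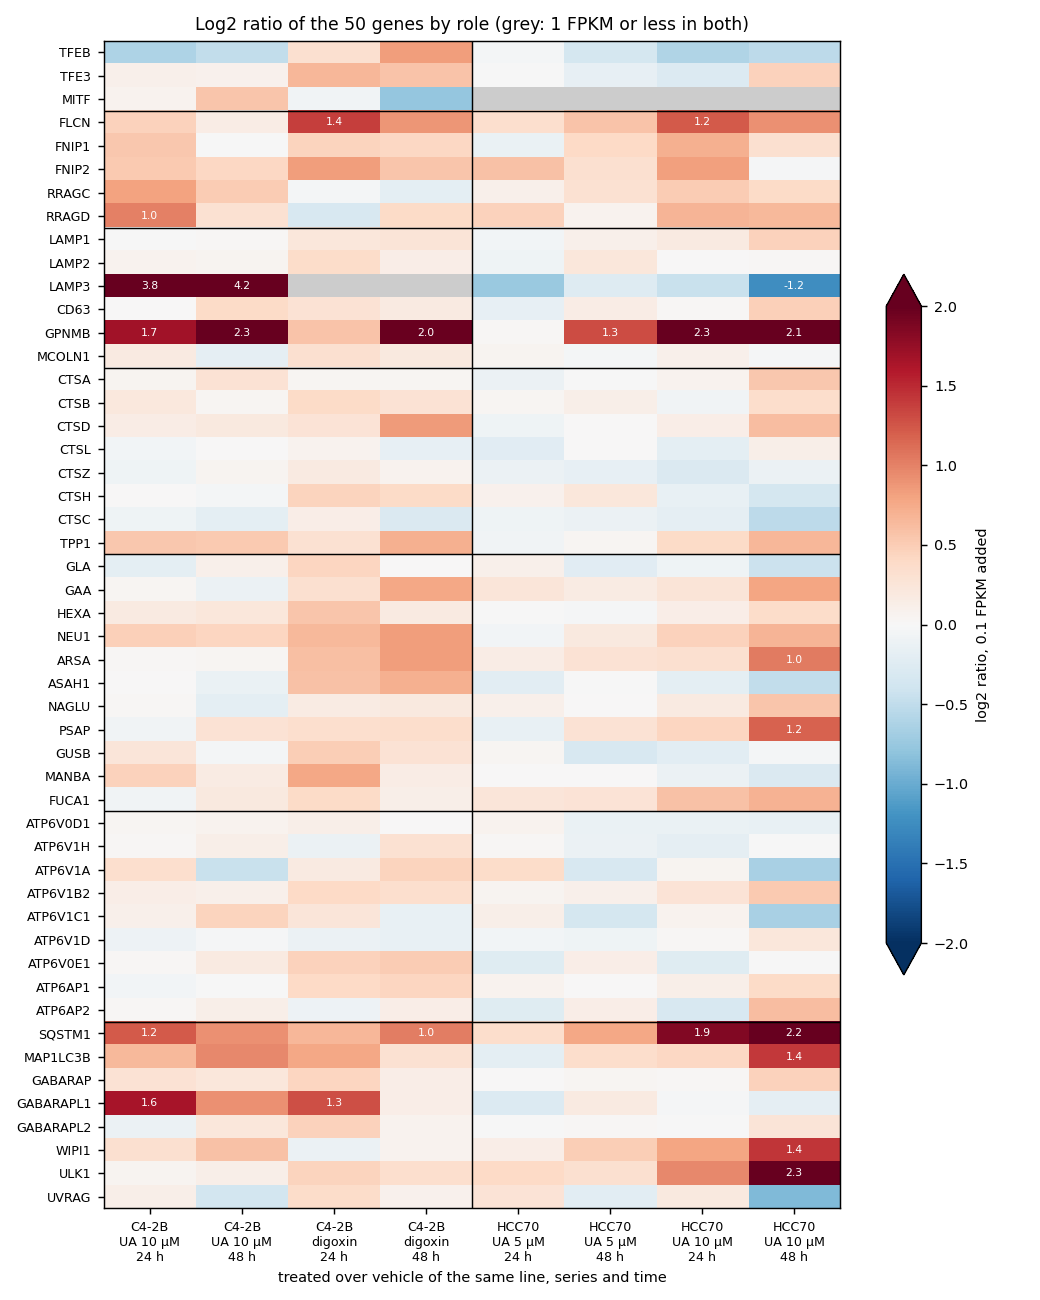
Log2 ratio of each of the 50 genes (rows, grouped by role) in the 8 comparisons of treated over vehicle (columns), with red for higher, blue for lower and grey where both libraries were at 1 FPKM or less. Colour ends at a log2 ratio of 2, and values at 1 or beyond are printed. SQSTM1 and GPNMB are red or near 0 in all 8 columns, LAMP3 is red with UA in C4-2B (3.77 and 4.19) and blue in HCC70, and TFEB is blue with 10 µM UA in both lines.

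Among the transcription factors themselves, the RNA of TFEB was lower with UA and higher with digoxin. TFEB (ENSG00000112561, chromosome 6, 41683978 to 41736259, minus strand) was at 15.19 FPKM in the UA-series vehicle and 9.91 with UA at 24 h, and at 15.41 and 10.97 at 48 h (log2 ratios −0.61 and −0.49). It was at 8.48 FPKM in the digoxin-series vehicle and 10.62 with digoxin at 24 h, and at 7.68 and 13.84 at 48 h (0.32 and 0.84). Each treatment lay apart from its own vehicles in C4-2B, yet the UA-treated libraries were above the vehicles of the digoxin series. TFEB was the only 1 of 50 genes below both vehicles in both UA libraries of C4-2B, beside 16.4% of all genes. In HCC70 cells it was at 17.53, 17.07 and 11.54 FPKM with vehicle, 5 and 10 µM UA at 24 h, and at 11.02, 8.60 and 7.63 at 48 h. The level ranked downwards by dose at both times (10 µM over vehicle −0.60 and −0.52), but the vehicles of 24 and 48 h differed by as much (−0.66), so that vehicle and 10 µM libraries overlapped when the times were put together.

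TFE3 (ENSG00000068323, chromosome X, 49028726 to 49043410, minus strand), which shares most functions with TFEB, was at 20.18 and 20.61 FPKM in the vehicles of the UA series and at 21.70 and 21.97 with UA. With digoxin it was at 23.49 and 22.86 FPKM, above the vehicles of its series at 14.71 and 15.31 (log2 ratios 0.67 and 0.58). TFE3 was thus nearly level with UA and higher with digoxin in C4-2B. In HCC70 it ranged from 6.06 to 10.44 FPKM, with 10 µM over vehicle at −0.28 at 24 h and 0.46 at 48 h. MITF (ENSG00000187098, chromosome 3, 69739456 to 69968336, plus strand), the member of the family that directs the melanocyte and osteoclast programs, was at 1.21 to 3.36 FPKM in C4-2B and at 0.25 to 0.87 in HCC70. Its log2 ratios in C4-2B were 0.08 and 0.56 with UA and −0.06 and −0.77 with digoxin. Of the melanocyte and osteoclast genes that MITF drives, PMEL was at 1.19 to 2.27 FPKM in C4-2B and at 0.18 to 0.78 in HCC70. ACP5 was at 1.17 to 3.24 FPKM in HCC70 and at 0.10 to 0.70 in C4-2B, while TYR was at 0 in every library.

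The regulators that tether TFEB to mTORC1 were mostly above the vehicle. In the medians of these 5 genes the log2 ratio was 0.53 and 0.30 with UA in C4-2B, 0.44 and 0.42 with digoxin, and 0.71 and 0.38 with 10 µM UA in HCC70. FLCN (ENSG00000154803, chromosome 17, 17212212 to 17237188, minus strand), which encodes folliculin, the GTPase-activating protein for RagC and RagD, had the highest ratio of the 5 with digoxin. It was at 5.41 FPKM in the vehicle and 14.23 with digoxin at 24 h, and at 7.29 and 13.60 at 48 h (log2 ratios 1.38 and 0.89, or 2.60- and 1.85-fold). It was at 8.22 and 11.32 FPKM with vehicle and UA at 24 h, and at 9.58 and 10.64 at 48 h (0.46 and 0.15). Both treated libraries of each compound were above both of its vehicles, with the wider gap for digoxin. In HCC70 cells FLCN stood at 2.72, 3.45 and 6.47 FPKM with vehicle, 5 and 10 µM UA at 24 h and at 2.44, 3.68 and 4.69 at 48 h. These levels rank by dose at both times, and the 10 µM libraries (1.22 and 0.92) were above both vehicles and both 5 µM libraries.

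RRAGD (ENSG00000025039, chromosome 6, 89364616 to 89412273, minus strand), which encodes the Rag GTPase RagD, was at 1.10 FPKM in the vehicle and 2.31 with UA in C4-2B at 24 h, and at 1.88 and 2.34 at 48 h (log2 ratios 1.01 and 0.30). The 2-fold difference at 24 h rests on a low vehicle value, and the log2 ratio was 0.66 when 1 FPKM was added. The digoxin-series vehicle of the same time was at 2.49 FPKM, and against it the UA library was lower by a log2 ratio of −0.10. With digoxin RRAGD was at 1.98 and 4.07 FPKM beside vehicles at 2.49 and 3.11. In HCC70 it was at 4.08, 5.63 and 6.57 FPKM by rising dose at 24 h and at 7.47, 7.84 and 11.73 at 48 h (10 µM over vehicle 0.67 and 0.64), and the vehicles themselves differed by 0.86 between the times. RRAGC, for the related RagC, had ratios of 0.80 and 0.51 with UA in C4-2B and 0.50 and 0.38 with 10 µM in HCC70, beside −0.04 and −0.19 with digoxin. FNIP2, a folliculin partner, was at 2.43 and 3.54 FPKM with vehicle and UA at 24 h and at 2.79 and 3.76 at 48 h in C4-2B. FNIP2 had ratios of 0.84 and 0.55 with digoxin, and in HCC70 with 10 µM 0.81 at 24 h and −0.02 at 48 h. FNIP1, the other partner, ranged from −0.14 to 0.71 over the 8 comparisons.

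The membrane of the lysosome held the largest difference of the list and its only 2-fold lower value, both of LAMP3, while GPNMB was higher in every comparison. GPNMB (ENSG00000136235, chromosome 7, 23235967 to 23275108, plus strand), a glycoprotein of lysosomes and melanosomes that is known as a target of MITF and TFE3, was at 2.41 FPKM in the vehicle and 7.90 with UA in C4-2B at 24 h, and at 1.59 and 8.18 at 48 h (log2 ratios 1.67 and 2.29, 3.19- and 4.90-fold). The digoxin series gave 1.85 FPKM for the vehicle and 2.81 for the treated cells at 24 h, then 2.27 and 9.25 at 48 h (0.58 and 1.98). Every treated C4-2B library was above all 4 vehicles, and that of digoxin at 24 h by the least. In HCC70 GPNMB was at 2.52, 2.56 and 12.89 FPKM with vehicle, 5 and 10 µM UA at 24 h, and at 4.53, 11.35 and 19.20 at 48 h. The 5 µM library was level with its vehicle at 24 h (0.02) and above it at 48 h (1.31), and both 10 µM libraries (2.31 and 2.06) were above all others of this line.

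LAMP3 (ENSG00000078081, chromosome 3, 183122215 to 183163839, minus strand), a LAMP-family protein known from mature dendritic cells and from alveolar type II cells, differed between the lines in direction. In C4-2B it was at 0.32 FPKM in the vehicle and 5.62 with UA at 24 h and at 0.45 and 9.93 at 48 h, log2 ratios of 3.77 and 4.19, or 2.33 and 2.91 when 1 FPKM was added in place of 0.1. The digoxin-series vehicles were at 0.10 and 0.15 FPKM and the digoxin libraries at 0.28 at both times, which are too low to be compared. Only the UA libraries stood above 1 FPKM among the 8 of C4-2B. In HCC70 LAMP3 was at 4.55, 2.67 and 3.31 FPKM with vehicle, 5 and 10 µM UA at 24 h and at 4.49, 3.72 and 1.84 at 48 h. All 4 UA libraries of HCC70 were below both vehicles, with 10 µM over vehicle at −0.45 and −1.24, the latter −0.95 when 1 FPKM was added. The level of LAMP3 in the C4-2B library of UA at 48 h exceeded that in every HCC70 library. This library has the raised KRT5, KRT17 and KRT6B values given above, beside lower KRT14, CDH3 and EGFR. At 24 h, when KRT5, KRT17 and KRT6B were at 0.05 to 0.13 FPKM, LAMP3 was also high. The 8 leukocyte markers summed to 20.8 FPKM in the vehicle and 22.0 with UA at 24 h and to 20.2 and 27.1 at 48 h, nearly all of it CD68, with PTPRC and TYROBP at 0. The part of these markers and keratins in the LAMP3 value was not tested.

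The other membrane genes lay near their vehicles. LAMP1 and LAMP2, which encode the main glycoproteins of the membrane, had log2 ratios from −0.09 to 0.47 over the 8 comparisons, and CD63, a tetraspanin, from −0.17 to 0.48. The highest value of LAMP1 was that of HCC70 with 10 µM at 48 h, at 187 FPKM beside 135 in the vehicle. MCOLN1, for the channel TRPML1, whose calcium release activates the phosphatase that acts on TFEB, ranged from −0.19 to 0.32.

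**Figure D3:**
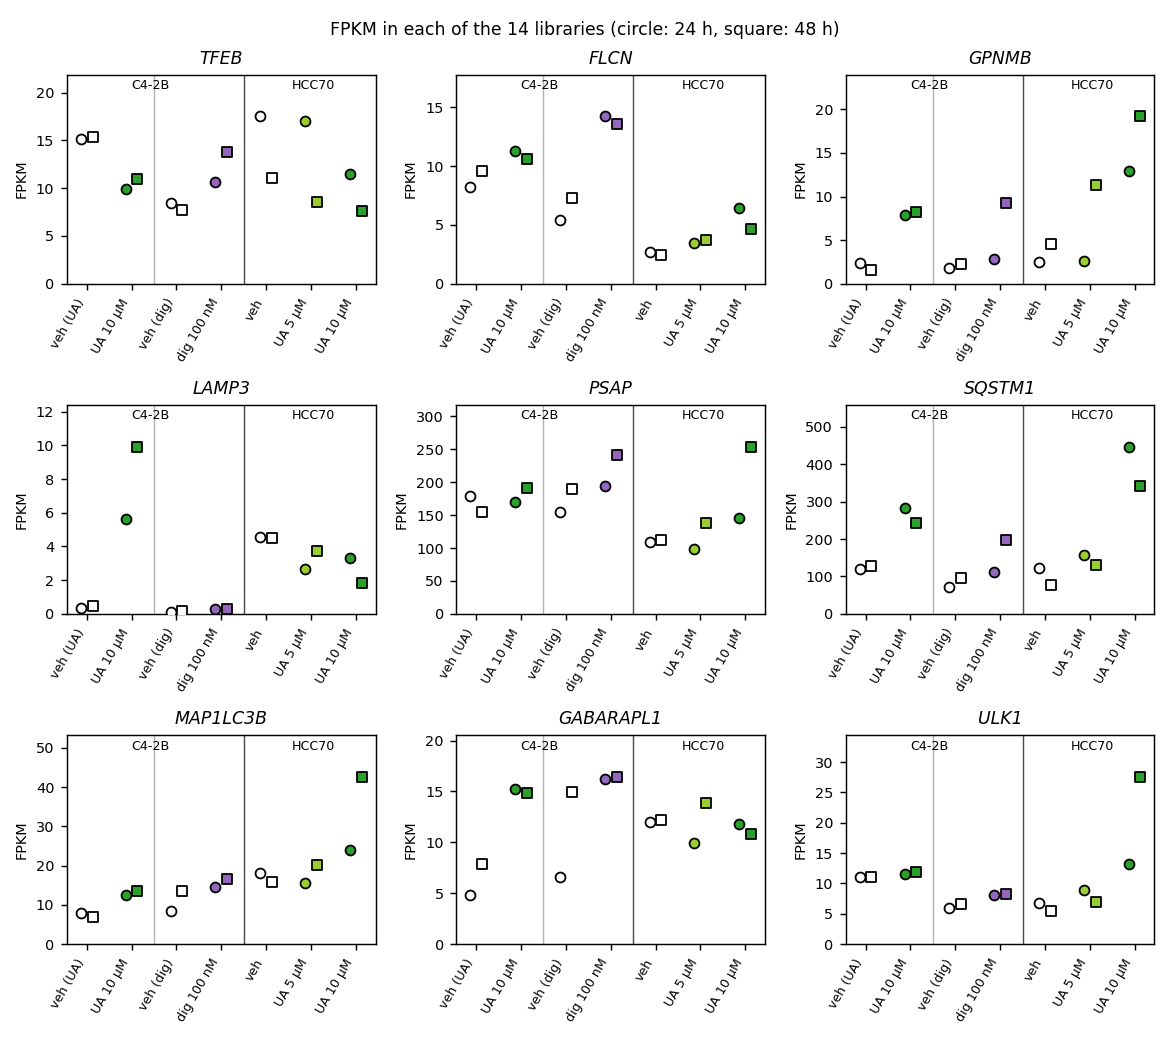
FPKM (vertical axis, from 0) of 9 genes in each of the 14 libraries, with circles for 24 h and squares for 48 h, white for vehicle, light green for 5 µM UA, dark green for 10 µM UA and purple for digoxin. The HCC70 libraries with 10 µM UA are the highest of that line for FLCN, GPNMB, PSAP, SQSTM1, MAP1LC3B and ULK1, and LAMP3 is above 5 FPKM only in C4-2B with UA.

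Lysosomal proteases showed no 2-fold difference in any comparison. Per comparison 1.11 to 6.8% of all genes were 2-fold higher and 0.644 to 13.3% lower, so none of 8 proteases is near most of these shares. With digoxin all 8 were above the vehicle at 24 h, by log2 ratios of 0.04 to 0.45, beside 61.9% of all genes. At 48 h 6 of 8 were, beside 48.4%. Between the untreated vehicles of the digoxin series all 8 were also higher at 48 h than at 24 h (median 0.26), beside 65.7% of all genes. With UA in C4-2B 5 and 6 of 8 were higher by any amount, beside 47.2 and 52% of all genes. The medians were 0.028 and 0.046, beside −0.013 and 0.011 over all genes. TPP1 (tripeptidyl peptidase) had the highest ratio of the 8 in HCC70 with 10 µM at 48 h: it was at 11.70, 11.12 and 15.35 FPKM by rising dose at 24 h and at 13.50, 13.94 and 21.53 at 48 h (10 µM over vehicle 0.39 and 0.67). In C4-2B it was at 26.33 and 27.09 FPKM in the UA-series vehicles and at 38.20 and 38.87 with UA (0.54 and 0.52), and with digoxin it had ratios of 0.31 and 0.70. TPP1 was above both vehicles in each of these sets of 10 µM UA or digoxin libraries. CTSC, for cathepsin C, which activates serine proteases of immune cells, had the lowest ratio of the 8 with 10 µM in HCC70 at 48 h. It was at 159, 151 and 141 FPKM by rising dose at 24 h, and at 140.3, 129 and 97.8 at 48 h (10 µM over vehicle −0.18 and −0.52). At 24 h CTSZ, for cathepsin Z, was the lowest (−0.29). CTSC and TFEB were the 2 of 49 genes whose level ranked downwards by dose at both times, beside 12.3% of all genes. CTSD was the highest of the list in HCC70, at 453 to 497 FPKM in the vehicles and 693 with 10 µM at 48 h (0.61), and it had a ratio of 0.85 with digoxin at 48 h. CTSA, CTSB, CTSL, CTSZ and CTSH ranged from −0.34 to 0.53.

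Of the hydrolases that degrade glycans and lipids all 11 were above the vehicle with digoxin at both times, beside 61.9 and 48.4% of all genes. Between the untreated vehicles of that series all 11 were also higher at 48 h than at 24 h (median 0.20), beside 65.7% of all genes. UA in C4-2B gave medians near 0. The digoxin medians were 0.49 at 24 h and 0.28 at 48 h, beside 0.12 and −0.017 for all genes, and 4 of 11 were at least 1.5-fold higher at each time, beside 10.9 and 9.27%. ASAH1, the acid ceramidase, was at 68.0 FPKM in the vehicle and 102 with digoxin at 24 h and at 69.1 and 114 at 48 h (log2 ratios 0.59 and 0.72). ARSA (ENSG00000100299, chromosome 22, 50622754 to 50628173, minus strand), the arylsulfatase that degrades sulfatide, was measured at 7.37 FPKM in the vehicle and 11.28 with digoxin at 24 h, then at 8.85 and 15.92 at 48 h (0.61 and 0.84). The digoxin libraries were above both vehicles of the series for both genes. For UA the same genes in C4-2B were nearly level, with ASAH1 at 0.01 and −0.13 and ARSA at 0.02 and 0.04.

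In HCC70 cells these enzymes split with 10 µM UA at 48 h, when the median of the 11 was 0.56 beside −0.20 for all genes. PSAP (ENSG00000197746, chromosome 10, 71816298 to 71851251, minus strand), which encodes the precursor of the saposins that present lipids to the enzymes, had the highest ratio. PSAP was at 109, 98.7 and 146 FPKM by rising dose at 24 h and at 112, 137 and 254 at 48 h (10 µM over vehicle 0.42 and 1.18). ARSA was at 14.68, 16.33 and 18.28 FPKM at 24 h and at 15.83, 19.30 and 32.80 at 48 h (0.31 and 1.05). For both genes the 10 µM library of 48 h was above all others of the line. GAA (acid α-glucosidase, 0.79), FUCA1 (α-L-fucosidase, 0.70) and NEU1 (sialidase, 0.68) were also at least 1.5-fold higher at 48 h. ASAH1 was the lowest, at 23.57, 20.29 and 20.56 FPKM by dose at 24 h and at 27.99, 27.74 and 19.89 at 48 h (−0.20 and −0.49). So ASAH1 lay above its vehicles with digoxin in C4-2B and below them with 10 µM UA in HCC70. The other hydrolases, GLA, HEXA, NAGLU, GUSB and MANBA, had ratios from −0.42 to 0.77 over the 8 comparisons.

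The V-ATPase, the pump that acidifies the lysosome, showed small differences, and none of its 9 genes was past 2-fold in any comparison. Per comparison 1.11 to 6.8% of all genes were 2-fold higher and 0.644 to 13.3% lower, so none of 9 V-ATPase genes is near most of these shares. The medians with UA in C4-2B were 0.030 and 0.097, and those with digoxin 0.18 and 0.31. In HCC70 with 10 µM they were 0.025 and −0.012, or 0.19 at 48 h relative to the median of all genes. ATP6AP2, an accessory subunit that is also the prorenin receptor, was the highest at 48 h, at 16.91, 18.62 and 25.98 FPKM by dose (0.62), while at 24 h it was at 18.28, 15.48 and 14.57 (−0.33). ATP6V1C1, the C subunit of the catalytic V1 sector, was the lowest, at 28.86, 22.66 and 18.29 FPKM at 48 h (−0.66), beside 28.21, 30.54 and 29.76 at 24 h (0.08). For both genes the order of doses at 48 h did not hold at 24 h. ATP6V1A, the catalytic subunit, was also lower at 48 h (−0.65). ATP6V1D was the only 1 of 49 genes below both vehicles in both digoxin libraries (35.21 and 35.79 FPKM beside 38.17 and 39.74), beside 20% of all genes.

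Among the 8 autophagy genes 4 were 2-fold higher with 10 µM UA in HCC70 at 48 h, beside 6.8% of all genes, and 1 at 24 h, beside 2.03%. In C4-2B with UA 2 of 8 were 2-fold higher at 24 h and none at 48 h, beside 1.28 and 1.75%. The median of the 8 was 0.30 at 24 h and 0.41 at 48 h in C4-2B, and 0.30 and 0.94 in HCC70. SQSTM1 (ENSG00000161011, chromosome 5, 179806398 to 179838078, plus strand) encodes p62, the receptor that binds ubiquitin-tagged cargo and is itself degraded by autophagy. It was at 120.5 FPKM in the vehicle and 282 with UA in C4-2B at 24 h, and at 129 and 243 at 48 h (log2 ratios 1.23 and 0.92, 2.34- and 1.89-fold). With digoxin it was at 71.4 and 113 FPKM at 24 h and at 97.1 and 198 at 48 h (0.66 and 1.02). Every treated library was above both vehicles of its series. In HCC70 SQSTM1 was at 124, 157 and 448 FPKM by rising dose at 24 h and at 76.4, 130.3 and 341 at 48 h. Both 5 µM libraries (0.34 and 0.77) and both 10 µM libraries (1.85 and 2.16, 3.61- and 4.46-fold) were above both vehicles. SQSTM1 was above its vehicle in all 8 comparisons, and so was GPNMB, in 1 of them by no more than 0.02.

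The ATG8 family, whose proteins are joined to lipid on the growing autophagosome, did not move as one. MAP1LC3B (ENSG00000140941, chromosome 16, 87383953 to 87404779, plus strand), for LC3B, was at 7.85 and 12.42 FPKM with vehicle and UA in C4-2B at 24 h and at 6.88 and 13.43 at 48 h (0.66 and 0.95). With digoxin it was at 8.54 and 14.62 FPKM at 24 h and at 13.42 and 16.56 at 48 h (0.77 and 0.30). The treated libraries were above both vehicles for each compound. In HCC70 it was at 17.97, 15.66 and 23.89 FPKM by dose at 24 h and at 15.87, 20.19 and 42.61 at 48 h. The 10 µM libraries were above both vehicles (0.41 and 1.42), and the 5 µM library was below its vehicle at 24 h (−0.20) and above at 48 h (0.35). A near-identical copy, MAP1LC3B2, was at 0.14 to 1.20 FPKM, and how reads were shared between the copies is not known.

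GABARAPL1 (ENSG00000139112, chromosome 12, 10212458 to 10223128, plus strand) was higher with UA in C4-2B, while in HCC70 it lay near its vehicles. It was at 4.79 FPKM in the vehicle and 15.21 with UA at 24 h and at 7.82 and 14.81 at 48 h (1.65 and 0.91). With digoxin it was at 6.54 and 16.18 FPKM at 24 h (1.29), and at 14.96 and 16.44 at 48 h (0.14). The vehicle of the digoxin series at 48 h was near the treated libraries, so that the difference at 24 h was about that between the vehicles of the series (1.18). In HCC70 it stayed within 9.97 to 13.85 FPKM (10 µM over vehicle −0.02 and −0.17). Its copy GABARAPL3 was at 0 to 0.07 FPKM in the 10 UA-series and HCC70 libraries and is not analysed here in the digoxin series. GABARAP and GABARAPL2 had ratios from −0.12 to 0.46.

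ULK1 and WIPI1, which act at the start of autophagosome formation, were higher with UA in HCC70. ULK1 (ENSG00000177169, chromosome 12, 131894622 to 131923150, plus strand), the kinase that starts autophagy, was at 6.74, 8.89 and 13.20 FPKM by rising dose at 24 h and at 5.52, 6.93 and 27.59 at 48 h. The log2 ratios of 10 µM over vehicle were 0.96 and 2.30 (1.94- and 4.93-fold), and the latter was the highest of the 49 genes in that comparison. In C4-2B with UA ULK1 was at 11.06 and 10.99 FPKM in the vehicles and at 11.50 and 11.95 when treated (0.06 and 0.12), and with digoxin it had ratios of 0.44 and 0.34. WIPI1 (ENSG00000070540, chromosome 17, 68420948 to 68457513, minus strand), which binds phosphatidylinositol 3-phosphate on the forming membrane, was at 23.79, 26.14 and 41.14 FPKM in HCC70 at 24 h and at 20.48, 28.88 and 55.28 at 48 h (10 µM over vehicle 0.79 and 1.43). In C4-2B it was at 11.33 and 14.24 FPKM with vehicle and UA at 24 h and at 11.63 and 17.50 at 48 h (0.33 and 0.59). Both UA libraries were above both vehicles in each line, by more in HCC70. UVRAG, a partner of Beclin 1 in the lipid kinase complex, was the lowest of the autophagy genes in HCC70 with 10 µM at 48 h, at 3.40, 2.94 and 1.79 FPKM by dose (−0.89), beside 2.98, 3.63 and 3.42 at 24 h (0.19).

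A dose order was seen for part of the list in HCC70 cells. Vehicle, 5 and 10 µM ranked upwards at both times for 14 of 49 genes, beside 8.16% of all genes. These were FLCN, RRAGC, RRAGD, GPNMB, GAA, ARSA, NAGLU, FUCA1, ATP6V1B2, ATP6AP1, SQSTM1, GABARAP, WIPI1 and ULK1, at least 1 of every role but the TFEB family and the proteases. At 24 h alone 16 of 49 genes (32.7%) ranked upwards, beside 16.7%, and at 48 h alone 25 of 49 (51.0%), beside 21.1%. Set directly against 5 µM, 10 µM gave a median log2 ratio of 0.080 at 24 h with 2 genes 2-fold higher, GPNMB and SQSTM1, beside 1.7%. At 48 h the median was 0.30 with 3 genes 2-fold higher, SQSTM1, MAP1LC3B and ULK1, beside 4.75%. Both 10 µM libraries were above both vehicles for 22 of 49 genes, beside 18.7%, and below for 7, beside 28.1%. In C4-2B the count for UA was 25 of 50 above, beside 17.6%, and that for digoxin 32 of 49 above, beside 29.5%, with the single genes below named earlier.

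Differences of at least 1.5-fold that recurred at both times involved few genes, all of them higher. None was lower at both times in any set, beside 0.516% of all genes with UA in C4-2B, 2.32% with digoxin, 0.286% with 5 µM and 4.71% with 10 µM in HCC70. With UA in C4-2B they were 5 of 50, beside 1.01% of all genes, namely GPNMB, SQSTM1, MAP1LC3B, GABARAPL1 and LAMP3, the last kept only through its treated libraries. With digoxin they were 5 of 49, FLCN, NEU1, ARSA, ASAH1 and SQSTM1, beside 3.74%. With 10 µM UA in HCC70 they were 6 of 49, FLCN, RRAGD, GPNMB, SQSTM1, WIPI1 and ULK1, beside 3.68%, and with 5 µM none, beside 0.416%. SQSTM1 was the one gene in all 3 sets. Between the lines, 10 µM UA at 24 h gave a 1.5-fold higher value in both for 3 of 49 genes, RRAGD, GPNMB and SQSTM1, beside 0.742%, and a lower one in both for TFEB, beside 0.39%. At 48 h GPNMB, SQSTM1, MAP1LC3B and WIPI1 were higher in both, 4 of 49 beside 1.27%, and none was lower in both, beside 0.66%. ULK1 at 48 h (0.12 in C4-2B, 2.30 in HCC70), GABARAPL1 at 24 h (1.65 and −0.02) and LAMP3 lay far from each other in the lines, and with 1 library each these differences could not be tested.

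**Figure D4:**
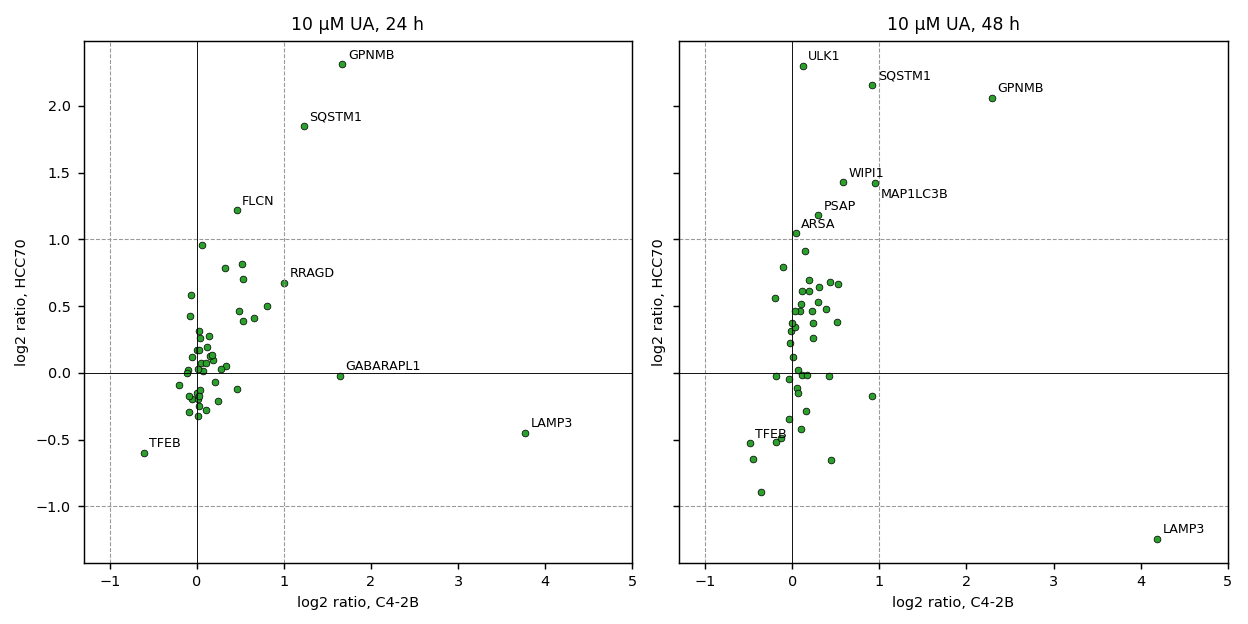
Log2 ratio of 10 µM UA over vehicle in C4-2B (horizontal axis) and in HCC70 (vertical axis) for the 49 genes kept in both, at 24 h (left) and 48 h (right). Dashed lines mark a 2-fold difference, and genes past 2-fold in either line and TFEB are named. GPNMB and SQSTM1 lie to the upper right at both times, LAMP3 to the lower right (4.19 and −1.24 at 48 h) and TFEB to the lower left.

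Across the genes of the list, the ratios at 24 h and those at 48 h were correlated with a Pearson r of 0.90 and a Spearman rho of 0.52 for UA in C4-2B (50 genes), beside 0.19 and 0.20 over 12019 genes. The values were 0.44 and 0.51 with digoxin (49 genes; 0.41 and 0.50 over all), 0.20 and 0.11 with 5 µM UA in HCC70 (49 genes; −0.014 and 0.032 over all), and 0.75 and 0.68 with 10 µM UA in HCC70 (49 genes; 0.58 and 0.55 over all). Without LAMP3, which was kept only through the treated libraries, the values for UA in C4-2B were 0.75 and 0.495 (49 genes), an alternative chosen after seeing the data. Genes of a library share its depth and preparation and are not replicates, so these are descriptions without a p-value.

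None of the 5 genes with the palindrome printed above was past 2-fold in any comparison. Per comparison 1.11 to 6.8% of all genes were 2-fold higher and 0.644 to 13.3% lower, so none of 5 is near most of these shares. The promoters of 16 of the 50 genes, those of LAMP3, PSAP, ARSA and RRAGD among them, were not searched. The 5 genes had log2 ratios from −0.19 to 0.29 with UA in C4-2B, from 0.02 to 0.77 with digoxin, and from −0.13 to 0.26 at 24 h and −0.15 to 0.79 at 48 h with 10 µM in HCC70. GAA was the highest of them with digoxin at 48 h (0.77, from 24.92 to 42.69 FPKM) and with 10 µM in HCC70 at 48 h (0.79, from 33.24 to 57.62). MCOLN1, with the motif 2 times like GAA, had ratios of 0.19 and −0.02 in the same comparisons.

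Further genes of the pathway gave a mixed picture. They were taken from 9 lists made by role, with earlier results of these data known. Of 30 or 31 kept lysosomal enzymes and cofactors outside the 50, none was past 2-fold with UA in C4-2B. Of all genes 1.28 and 1.75% were 2-fold higher there at 24 and 48 h, and 1.04 and 1.02% lower. With digoxin at 48 h 1 enzyme was higher (IDUA, α-L-iduronidase, 1.24 to 4.07 FPKM, log2 ratio 1.64, beside 2.69% of all genes). With 10 µM in HCC70 at 48 h 2 were higher (SMPD1 and HGSNAT) and 3 lower. In that comparison 6.8% of all genes were 2-fold higher and 13.3% lower, so that 2 and 3 of 31 were near or below the share of all genes. PPT1, the palmitoyl-protein thioesterase, was the lowest of these, at 167 FPKM in the vehicle and 61.2 with 10 µM (−1.45). Of 13 other V-ATPase subunits kept there 1 was 2-fold higher (7.69%) and 2 lower (15.4%), also near the shares of all genes. The higher one, ATP6V0D2, was at 0.47 FPKM in the vehicle and 1.55 with 10 µM, so it was kept only through the treated library. Among the lower was ATP6V1B1, the B subunit of kidney and epididymis, at 18.49, 12.81 and 1.44 FPKM by dose (−3.59). Of 17 other membrane proteins 1 was higher, the cholesterol transporter NPC1 (18.58 to 42.27 FPKM, 1.18), and 2 were lower, TMEM192 and SLC38A9, neither above the shares of all genes. With digoxin at 48 h CD68, a membrane glycoprotein used as a macrophage marker, was at 26.90 FPKM beside 8.20 in the vehicle (1.70). Of the 8 leukocyte markers 2 were above 1 FPKM in that library, CD68 and LYZ, while PTPRC, CD163 and TYROBP were at 0.

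Upstream of TFEB, 2 of 26 kept genes of mTORC1 and its inputs were 2-fold higher with 10 µM UA in HCC70 at 48 h, SESN2 and DDIT4, and 3 were lower, DEPTOR, RRAGB and MIOS, beside 6.8 and 13.3% of all genes. SESN2, for sestrin 2, which holds back mTORC1 when leucine is scarce, was at 8.07, 12.12 and 22.27 FPKM by rising UA dose in HCC70 at 24 h and at 7.16, 13.48 and 33.06 at 48 h (10 µM over vehicle 1.45 and 2.19). DDIT4, for the stress-induced inhibitor REDD1, was at 17.02, 24.06 and 68.50 FPKM at 24 h and at 18.45, 66.67 and 272 at 48 h (2.00 and 3.87). Both ranked by dose at both times. In C4-2B DDIT4 had ratios of 1.37 and 0.57 with UA, and 1.04 and −2.09 with digoxin, whose vehicle at 48 h was high (238 FPKM). The inhibitors of mTORC1 TSC1, TSC2 and DEPTOR were not 2-fold higher: with 10 µM in HCC70 TSC1 had ratios of 0.24 and 0.05, TSC2 of 0.20 and 0.35, and DEPTOR of −0.22 and −1.61. Of 31 other core autophagy genes 2 were 2-fold higher with 10 µM at 48 h, ATG2A and WDR45 (6.45%), beside 6.8%. A further 2, ULK2 and MAP1LC3A, were lower, beside 13.3%. Of 12 autophagy receptors BNIP3 and BNIP3L were higher (16.7%). BNIP3 was at 0.38 FPKM in the vehicle and 13.84 with 10 µM. It was kept only through the treated library, so it could only come out higher. MAP1LC3A (1.56 to 0.45 FPKM) and DEPTOR (2.70 to 0.82) were kept only through the vehicle. In C4-2B with UA the receptor OPTN was at 5.63 and 11.19 FPKM at 24 h and at 4.82 and 10.06 at 48 h (0.98 and 1.05). None of 30 core autophagy genes was past 2-fold there, beside 1.28 and 1.75% of all genes higher and 1.04 and 1.02% lower.

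**Figure D5:**
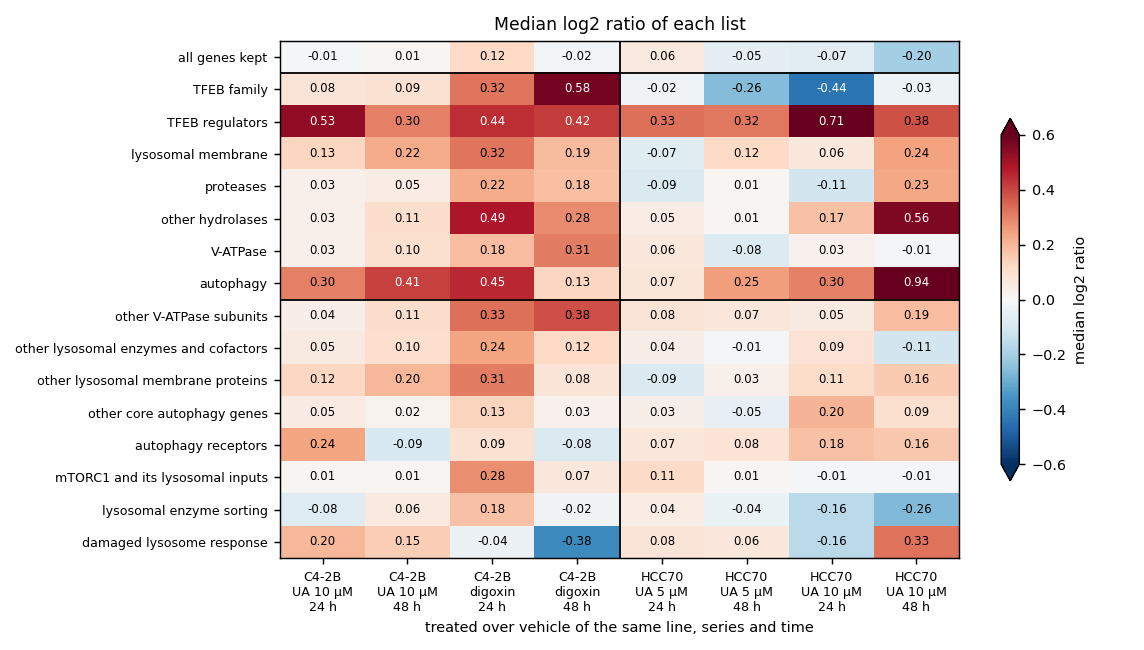
Median log2 ratio (number and colour, ending at 0.6 in either direction) of all genes kept, of the 7 roles of the 50 genes and of 8 lists of further pathway genes (rows) in the 8 comparisons (columns). The regulators of TFEB, the autophagy genes, the other hydrolases and the other V-ATPase subunits have positive medians in every column, the lowest at 0.013 for the other hydrolases. The remaining lists of the pathway are mostly within 0.4 of 0.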

How the data were processed

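RNA of 14 libraries had been sequenced. The deposited values are FPKM to 2 decimals, which the authors made with BWA and Bowtie (alignment to hg38) and Cufflinks (quantification). The versions and the gene annotation are not given in the sources used here. Files of the digoxin series carry no unit, and their values were treated as FPKM because the methods describe FPKM and the values are of like size. FPKM divides by a library's total, so that a few abundant genes shift the rest, and low values carry few fragments. Whole counts could not be recovered (28.5 to 38.0% of low values came within 0.1 of a whole number, beside 20% for an even spread), so no interval for counting error is given.

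Members were matched by symbol. The Ensembl IDs of a symbol were summed (101 further IDs in all). Genes above 1 FPKM in either library were kept as in the methods, log2 ratios used a pseudocount of 0.1 FPKM, and a 2-fold threshold was set beside 1.5-fold. With 1 library per condition no test was made. Any description of a list stands beside the same over all genes kept. The counting was tested on simulated data, with planted changes well past 2-fold in genes above 5 FPKM. That test does not cover ratios near 2-fold, genes near 1 FPKM or the variation between replicate libraries. Python 3.11.15, numpy 2.4.6, pandas 2.3.3 and matplotlib 3.10.9 were used. Gene positions are of GENCODE v44 on hg38.

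The members, lists and the rule for naming genes were chosen with earlier results of these data known. The rule names the TFEB family, members past 2-fold in any of the 8 comparisons, and in each role the highest and lowest member with 10 µM UA in HCC70 at 48 h. CTSD, CTSZ, GAA, RRAGC, FUCA1, NEU1, ATP6V1A, ATP6V1D, LAMP1, MCOLN1 and CD63 were named besides, after their values had been seen. Of the further pathway lists, up to 3 genes per direction past 2-fold were named, and TSC1 and TSC2 besides, which were not past 2-fold. No pair of libraries shared more than 0.374% of identical values. Alternatives were other pseudocounts (1 and 0.01), no filter or one of 5 FPKM, centring on the median of all genes, the highest entry of a symbol, a 1.5-fold threshold, the list's mean, and a vehicle from the other time or series.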

Additional observations from a re-analysis of the deposited data

Results flagged for a closer look

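LAMP3 was flagged because it lay above its vehicle in both C4-2B libraries with 10 µM UA and below its vehicle in both HCC70 libraries with this dose. The log2 ratio in C4-2B minus that in HCC70 was 4.22 at 24 h (3.77 and −0.45) and 5.43 at 48 h (4.19 and −1.24). With 1 library per condition this difference was not tested. The C4-2B vehicles held LAMP3 at 0.32 and 0.45 FPKM, near the lower end of what these libraries measure, while those of HCC70 held it at 4.55 and 4.49, so the ratios start from unlike levels. The UA libraries of C4-2B reached 5.62 and 9.93 FPKM.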

How the results depend on the processing

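No paired analysis was possible because the labels give no replicate numbers, and no replicate could be left out because each condition has 1 library. Pseudocounts of 1 and 0.01, no filter or one of 5 FPKM, and the highest entry of a symbol moved none of the list medians by over 0.1 and none of the counts of genes past 2-fold by over 1.5 times. With a pseudocount of 1, RRAGD with UA in C4-2B at 24 h (0.66) and LAMP3 with 10 µM in HCC70 at 48 h (−0.95) were no longer past 2-fold, LAMP3 with UA in C4-2B was at 2.33 and 2.91, and 12 ratios of single genes under 2-fold moved by over 0.1. The 1.5-fold threshold moved all 8 counts. At 1.5-fold the genes past the threshold in either direction were 8 and 6 with UA in C4-2B (24 and 48 h), 10 and 11 with digoxin, 2 and 2 with 5 µM in HCC70 and 9 and 19 with 10 µM. The mean in place of the median gave 0.30 and 0.29 with UA in C4-2B and 0.21 with 10 µM in HCC70 at 24 h. Centring on all genes gave medians of 0.25 with digoxin at 24 h, 0.58 with 10 µM in HCC70 at 48 h, 0.21 and 0.43 for 10 over 5 µM, 0.12 for the digoxin-series vehicles and 0.087 for the HCC70 vehicles of 48 over 24 h.

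The vehicle of the other series moved 7 of 8 list medians and counts, and that of the other time 9 of 16. With the vehicle of the other C4-2B series the medians were 0.28 and −0.000496 with UA and 0.22 and 0.57 with digoxin, the counts past 2-fold were 5 with UA at 48 h and 6 and 10 with digoxin, and RRAGD with UA at 24 h turned to −0.10. With the vehicle of the other time the counts were 3 and 5 with UA in C4-2B, 1 and 7 with digoxin, 1 and 2 with 5 µM and 5 with 10 µM in HCC70 at 24 h, and the digoxin medians were 0.13 and 0.54. In these counts the 1 gene with digoxin at 24 h was lower, and with 5 µM at 48 h 1 was higher and 1 lower. For these 2 comparisons higher genes no longer outnumbered lower ones. In the remaining counts listed for the vehicle of the other time every gene was higher. Against the vehicle of the other C4-2B series, the 5 genes counted for UA at 48 h split into 4 above it and 1 below. Of the 6 counted there for digoxin at 24 h, 1 lay below that vehicle and 5 above. The 10 counted for digoxin at 48 h all lay above it. The cause was not tested. Single libraries, unknown depth and genes below 1 FPKM, such as LAMP3 in the C4-2B vehicles and MITF in HCC70, limit what these values can show.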
